A study of Mus musculus with 12 samples.

Results

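Transcripts of 10 genes of interleukin-1, interleukin-6 and tumour necrosis factor (TNF) signalling were followed in the injured mouse spinal cord. They were listed by name out of 37991 genes in the count table, with earlier results of these data known: the ligands Il1a, Il1b, Il6 and Tnf, the receptor antagonist Il1rn, and the receptor chains Il1r1, Il6ra, Il6st, Tnfrsf1a and Tnfrsf1b. The samples were 12 spinal cord libraries in 3 groups of 4 adult mice older than 8 weeks on a C57bl/6J background, and every mouse, controls included, was of the line Glast-Rasless-YFP (Glast-CreERT2 crossed with R26R-YFP and with Rasless). A Cre recombinase under the Glast (Slc1a3) promoter is made active by tamoxifen there, the YFP allele marks the recombined cells, and the Rasless alleles are recombined by the same enzyme. One group was left uninjured and is labelled as given vehicle. The other two groups underwent a dorsal hemisection at high thoracic level, and the lesion was collected 14 days later. Of these, the vehicle mice had received the solvent alone and the tamoxifen mice 2 mg of tamoxifen per injection day. Both injured groups had 5 injection days, followed by a clearing week before surgery. The series describes the vehicle lesions as densely scarred by pericyte-derived cells and the tamoxifen lesions as less so. Each library was RNA from a whole piece of dissected tissue, so a lower level may come from fewer cells of a type or from less RNA per cell, and these cannot be told apart. Libraries are named here by mouse number, which the labels do not tie between groups.

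These cytokine systems are among the early signals of tissue damage in the cord. Interleukin-1α and interleukin-1β bind the receptor IL1R1, and the antagonist encoded by Il1rn occupies the same receptor without signalling. Interleukin-6 binds IL6RA and then gp130 (Il6st), which is shared by the whole interleukin-6 family and signals through JAK kinases and STAT3. TNF acts through TNFR1 (Tnfrsf1a), found on most cells, and TNFR2 (Tnfrsf1b), most abundant on immune and endothelial cells. Signals from IL1R1 and both TNF receptors reach NF-kappaB, among other end points, and its target genes include these cytokines themselves.

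The starts of these genes show how differently their upstream sequence is built. RefSeq promoter windows (GRCm38.p6, a later build than the mm9 the submitters used) were found for all 10 genes, and the 250 bases before the start were searched on both strands for 4 short motifs. These were GGNNTTTCC for NF-kappaB, TTCNNNGAA for STAT factors, TGANTCA for AP-1 and TTGCNNAA for C/EBP factors. Of 32851 such windows over all genes, 4.93% held the first, 7.02% the second, 6.75% the third and 9.56% the last. The windows below are those that held a match, except that of Il1r1, whose match is given after them. They are written 5′ to 3′ on the gene's strand, with capitals marking the matches.

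Il1a (chr2:129309973-129310222, minus strand): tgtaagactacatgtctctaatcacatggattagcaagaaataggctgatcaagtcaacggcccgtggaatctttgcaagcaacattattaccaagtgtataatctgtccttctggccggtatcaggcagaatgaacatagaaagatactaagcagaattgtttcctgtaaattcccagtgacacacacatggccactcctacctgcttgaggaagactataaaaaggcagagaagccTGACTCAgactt
Il1rn, start 1 (chr2:24336610-24336859, plus strand): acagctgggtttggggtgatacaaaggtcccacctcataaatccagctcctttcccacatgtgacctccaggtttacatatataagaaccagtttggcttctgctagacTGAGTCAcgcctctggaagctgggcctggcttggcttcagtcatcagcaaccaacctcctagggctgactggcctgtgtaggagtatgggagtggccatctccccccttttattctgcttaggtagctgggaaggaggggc
Il1rn, start 3 (chr2:24345121-24345370, plus strand): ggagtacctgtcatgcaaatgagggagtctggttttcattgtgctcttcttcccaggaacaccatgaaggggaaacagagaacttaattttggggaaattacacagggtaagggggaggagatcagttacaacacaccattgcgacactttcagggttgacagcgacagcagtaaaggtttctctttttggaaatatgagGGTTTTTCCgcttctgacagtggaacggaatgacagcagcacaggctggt
Il6 (chr5:30012864-30013113, plus strand): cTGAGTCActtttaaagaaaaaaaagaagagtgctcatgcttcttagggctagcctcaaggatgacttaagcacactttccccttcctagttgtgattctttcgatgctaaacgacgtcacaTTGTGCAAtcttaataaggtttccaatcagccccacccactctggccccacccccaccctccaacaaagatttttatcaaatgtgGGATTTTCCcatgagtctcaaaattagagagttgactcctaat
Tnfrsf1a (chr6:125349473-125349722, plus strand): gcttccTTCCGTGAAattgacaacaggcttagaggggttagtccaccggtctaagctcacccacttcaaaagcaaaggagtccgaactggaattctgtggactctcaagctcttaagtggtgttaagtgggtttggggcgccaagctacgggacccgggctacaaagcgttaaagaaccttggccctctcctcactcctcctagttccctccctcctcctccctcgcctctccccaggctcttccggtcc
Tnfrsf1b (chr4:145246871-145247120, minus strand): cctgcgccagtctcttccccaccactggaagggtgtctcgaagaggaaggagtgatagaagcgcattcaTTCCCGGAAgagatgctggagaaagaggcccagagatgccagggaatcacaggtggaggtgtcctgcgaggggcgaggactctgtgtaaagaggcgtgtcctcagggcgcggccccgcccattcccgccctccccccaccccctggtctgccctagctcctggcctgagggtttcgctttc

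The Il6 window held an NF-kappaB, an AP-1 and a C/EBP match, whose first bases lay 43, 249 and 128 bases before the start. The Il1a window held an AP-1 match 12 bases before the start. Il1rn has 3 annotated starts, of which the first carried an AP-1 match at 141 bases and the third an NF-kappaB match at 50 bases. Both TNF receptors carried a STAT match, at 244 bases for Tnfrsf1a and 181 bases for Tnfrsf1b. At 1 of its 2 starts Il1r1 held a C/EBP match, 133 bases before it. None of these letters stood in the windows of Il1b, Il6ra, Il6st and Tnf. Such matches are descriptions of letters and say nothing of whether a factor binds.

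Library totals ran from 7967970 to 12581324 counts. Levels in CPM (counts scaled to library depth with TMM factors) compare one gene between libraries. FPKM, the authors' value per transcript length, is used to compare genes with each other. In the tamoxifen group 3 of the 4 libraries (513, 549 and 564) have sample names from 106 to 108, whereas the other 9 have names from 1 to 20. That series and the treatment can be told apart only through library 452. Sex-linked transcripts gave 3 female and 1 male mice in the uninjured group, 1 and 3 in the vehicle group, and 4 and 0 in the tamoxifen group. The only male uninjured mouse was 467 and the only female vehicle mouse 429, so a term for sex rests largely on them. Skeletal muscle transcripts were high in 5 libraries, namely 377 and 385 of the uninjured and 402, 429 and 457 of the vehicle group. Defining markers of neurons and astrocytes were counted in each library group, with summed levels of at least 3276 CPM for 7 neuronal and 6249 CPM for 6 astrocyte genes.

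By FPKM each receptor had a higher mean than each ligand in all 3 groups, although some ranges overlapped. Il1r1 overlapped with Il1a, Il1b and Il1rn in vehicle libraries and with Il1b in uninjured ones. Il6ra overlapped narrowly with Il1rn in vehicle libraries (4.047 FPKM at least against 4.053 at most). Il6st came first, with 37.3 ± 4.1 FPKM in uninjured cord, 52.4 ± 3.6 with vehicle and 47.1 ± 3.9 with tamoxifen (mean ± SD, n = 4 here and throughout). Tnfrsf1a came next, with 12.98 ± 1.04, 37.6 ± 7.3 and 31.0 ± 3.3 FPKM. The place after it went to Il6ra in uninjured cord (2.24 ± 0.52 FPKM, overlapping Tnfrsf1b at 1.89 ± 0.44) and to Tnfrsf1b in both injured groups (12.2 ± 4.8 and 8.10 ± 1.90 FPKM). Il1r1 was the lowest receptor, at 1.31 ± 0.39, 4.23 ± 1.20 and 3.44 ± 0.28 FPKM. Below the receptors Il1a reached 2.33 ± 0.62 FPKM with vehicle, and Il1rn and Il1b reached 1.80 ± 1.55 and 1.73 ± 1.38. Neighbours in this order from Il6ra down to Tnf overlapped in the vehicle group, so their order there is within the spread. Tnf (0.657 ± 0.286 FPKM) and Il6 (0.0895 ± 0.0719 FPKM) were the 2 lowest and did not overlap each other.

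**Figure D1:**
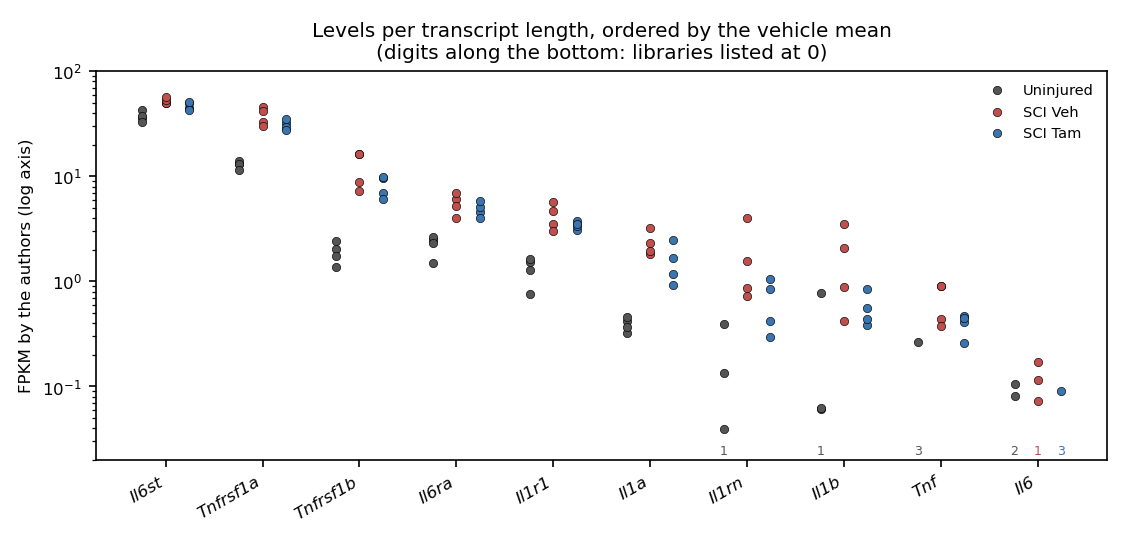
Each point is 1 library, the y axis is the authors' FPKM on a log scale, and genes are ordered by their vehicle mean; digits at the bottom count libraries listed at 0, which a log axis cannot show. Il6st and Tnfrsf1a lie above every other gene in each group. Il6 has the lowest mean in each group, but in uninjured cord its points overlap those of Tnf, Il1rn and Il1b.

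The first question was how the injured cord of vehicle mice differed from uninjured cord. Transcripts of all 5 receptors rose, from 1.37-fold for Il6st to 6.24-fold for Tnfrsf1b, and no receptor's injured libraries overlapped the uninjured ones. The 2 interleukin-1 ligands and the antagonist rose as well, from counts that were near the floor in uninjured cord. Over the 10 genes, 8 passed the filter on low counts and all 8 rose, and 9 of 10 did not overlap between groups in CPM (Il6 did), as was so for 51% of all genes tested. The 5 receptors had a median log2 fold change of 1.66, against 0.02 over all genes. Of all 16473 genes tested, 26.7% rose and 24.1% fell, together 50.8%. Il1a, Il1b and Il1rn reached the filter's level (0.914 CPM) in no uninjured library, so they could enter the test only through injured libraries and their calls are no evidence beside that count. The 5 receptors passed that level in every library of every group.

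Among the ligands, Il1a, the form of interleukin-1 held in cells and released on damage, had 5, 8, 9 and 8 counts in uninjured libraries 376, 377, 385 and 467. In vehicle libraries 402, 428, 429 and 457 it had 42, 22, 59 and 44. The lowest vehicle library thus held more than any uninjured one. The level went from 0.688 ± 0.089 to 4.02 ± 1.18 CPM, a log2 fold change of 2.52 (SE 0.31, adjusted p = 4.1e-05).

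Il1b, the secreted form that caspase-1 matures, had 0, 1, 3 and 1 counts in the uninjured and 25, 11, 35 and 4 in the vehicle libraries. Library 457 was far below the other 3 vehicle libraries and just above the highest uninjured one. In CPM the groups did not overlap (0.264 at most in uninjured and 0.314 at least with vehicle), but in FPKM they did, with 0.769 in uninjured library 385 and 0.425 in library 457. The log2 fold change was 3.89 (SE 0.78, adjusted p = 0.00119). As only 5 counts stood behind the uninjured group, the ratio of summed counts was 15.7 with a 95% exact interval of 6.46 to 49.9, which covers counting error only.

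Il1rn, the antagonist, showed the largest fold of the tested members. It had 2, 1, 1 and 0 counts in uninjured libraries and 31, 14, 82 and 19 in vehicle libraries, or 0.101 ± 0.095 against 3.52 ± 2.80 CPM. Library 429 held more Il1rn than the other 3 vehicle libraries together. The log2 fold change was 5.08 (SE 0.77, adjusted p = 0.000169), and the ratio of summed counts was 38.3 (14.7 to 143). Per length, Il1rn stood at 0.351, 0.318, 0.604 and 0.310 of the sum of Il1a and Il1b in the same vehicle libraries, so the antagonist's transcript was below the sum of its competitors in each.

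Tnf was too low for the filter. It had 2, 0, 0 and 0 counts in uninjured libraries and 14, 5, 17 and 7 in vehicle libraries. All 4 vehicle libraries were above all 4 uninjured ones, and the exact two-sided permutation test gave p = 0.0286, the smallest that 4 against 4 allows. The ratio of summed counts was 22.6 (5.88 to 192). Il6 had 1, 0, 0 and 1 counts in uninjured and 0, 1, 2 and 1 in vehicle libraries, which is the level of single reads. A difference in Il6 was not detectable at this depth (exact permutation p = 0.486).

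**Figure D2:**
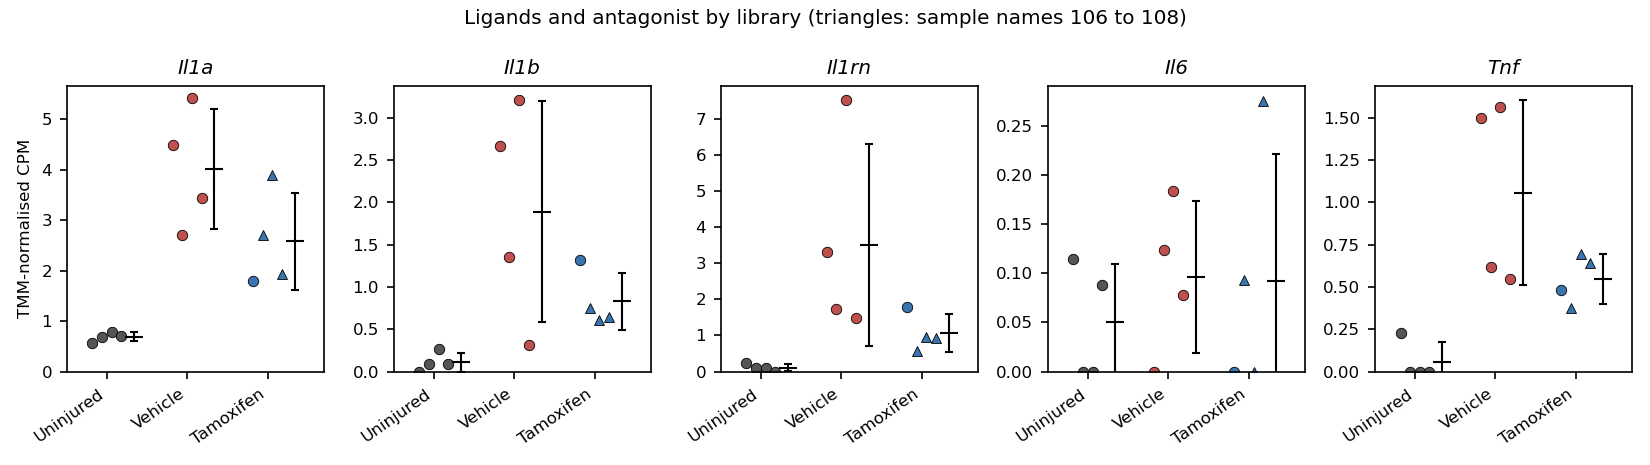
Each point is 1 library in TMM-normalised CPM, with the mean and SD of its group beside it and triangles for the libraries with sample names 106 to 108; the y axis differs between genes. Injured libraries lie above the uninjured ones for Il1a, Il1b, Il1rn and Tnf, library 429 is the top vehicle point for Il1a, Il1b, Il1rn and Tnf, and Il6 stays at 0.276 CPM or less.

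Of the receptors, Tnfrsf1b (TNFR2) rose most. Its level was 9.07, 10.2, 7.82 and 6.23 CPM in uninjured libraries 376, 377, 385 and 467, and 64.5, 31.5, 72.6 and 38.7 CPM in vehicle libraries 402, 428, 429 and 457. The lowest vehicle library was at more than 3 times the highest uninjured one (log2 fold change 2.64, SE 0.28, adjusted p = 1.46e-05). Tnfrsf1a (TNFR1) rose from 27.4 ± 4.3 to 86.7 ± 13.6 CPM, a log2 fold change of 1.66 (SE 0.13, adjusted p = 3.41e-06). Because TNFR2 rose more than TNFR1, the ratio of their FPKM went from 0.144 ± 0.023 in uninjured to 0.316 ± 0.076 in vehicle libraries, with no overlap (0.171 at most against 0.2205 at least). TNFR1 still had the higher level per length in every library.

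Il1r1, the signalling receptor of interleukin-1, rose from 7.54 ± 2.20 to 23.9 ± 6.5 CPM (log2 fold change 1.67, SE 0.22, adjusted p = 6.65e-05). Il6ra, the chain that binds interleukin-6, rose from 9.84 ± 1.91 to 23.9 ± 5.0 CPM (1.28, SE 0.18, adjusted p = 0.000113). Il6st (gp130) had the highest level and the smallest change, from 242 ± 28 to 331 ± 22 CPM (0.46, SE 0.09, adjusted p = 0.000889). All 5 rises in receptors held when any single library was left out. Without the 5 libraries high in muscle transcripts, which leaves library 428 as the only vehicle library, 2 of the 8 tested members were called (Tnfrsf1a and Tnfrsf1b), and their part in the other calls was not tested further.

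**Figure D3:**
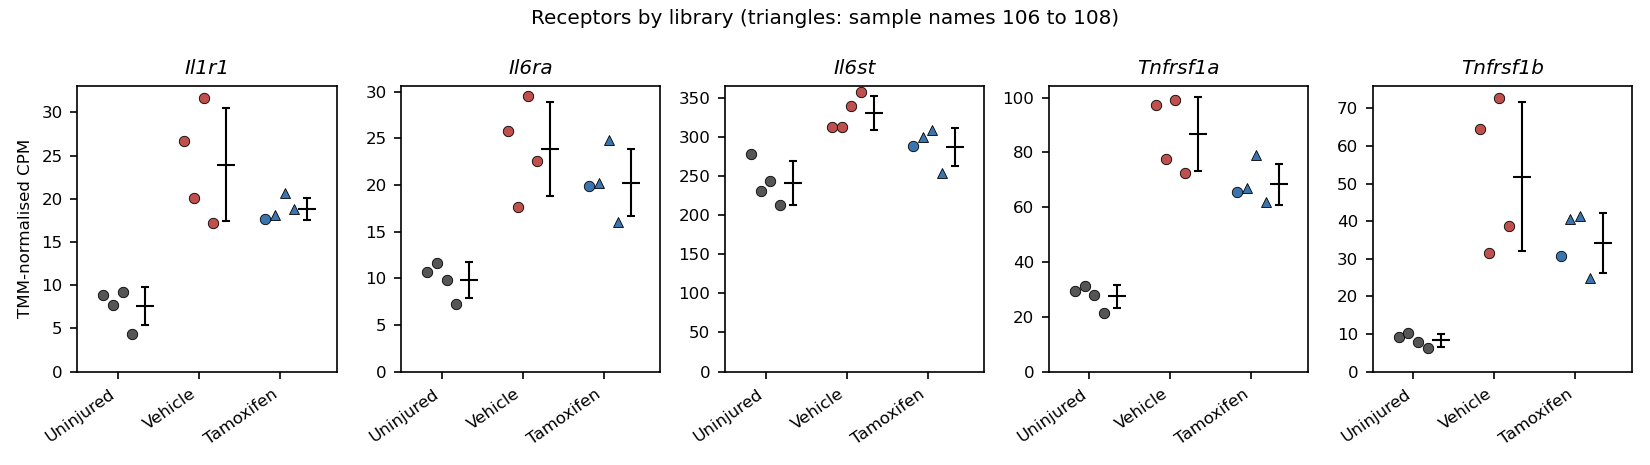
Each point is 1 library in TMM-normalised CPM, with the mean and SD of its group beside it and triangles for the libraries with sample names 106 to 108. For all 5 receptors the vehicle points lie above every uninjured point. The tamoxifen points overlap the vehicle points except for Il6st, where they lie below all of them.

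Markers of other cells moved with these rises, in a comparison where 26.7% of all genes tested rose and 24.1% fell. The summed level of 10 macrophage and phagocyte genes was 29.6 to 88.0 CPM in uninjured and 1159 to 2529 CPM in vehicle libraries, and 10 of 10 were called higher. Genes of the microglial list (7) went from 261 to 301 up to 608 to 1002 CPM, with 6 of 7 called higher. Neutrophil genes went from 8.16 to 48.9 up to 66.3 to 98.4 CPM, but 1 of the 5 tested was called higher. Library 376 held the highest uninjured sum, and without it 4 of 5 were called higher. Fibroblast genes went from 169 to 529 up to 2755 to 7867 CPM, with 7 of 7 higher, and 7 of 7 neuronal genes were called lower. Astrocyte genes went from 6249 to 6976 up to 9079 to 11508.5 CPM. Over the omissions of 1 library, 3 to 4 of them were called higher and at most 1 lower. Endothelial genes overlapped, at 249 to 321 against 318 to 423 CPM, with 2 to 4 called higher over the omissions. T and NK cell genes stayed between 1.11 and 7.90 CPM in these groups, with Cd3d at 0 in uninjured cord, the only defining marker at 0 in a group. The part of these cells in the cytokine and receptor levels was not tested.

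The second question was how tamoxifen lesions differed from vehicle lesions. Here all 8 tested members had lower fitted levels with tamoxifen, but 1 of them, Il1rn, passed the test. Of all genes tested, 8.33% fell and 7.79% rose, together 16.1%, so 1 in 8 is near the background. The median log2 fold change of the 5 receptors was -0.34, against 0.00 over all genes. Unadjusted p-values were under 0.05 for 5 of the 8. Il1rn reached the filter's level in 4 vehicle and 2 tamoxifen libraries, Il1b in 3 and 1, and neither did in uninjured cord. Both thus entered the test only with vehicle libraries, where they were high, so the Il1rn call is no evidence beside those counts. Il6st was the only member whose groups did not overlap in CPM, which was so for 16.4% of all genes tested, and in FPKM its groups did overlap.

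Il1rn had 15, 6, 11 and 10 counts in tamoxifen libraries 452, 513, 549 and 564. Its level was 1.06 ± 0.52 CPM, against 3.52 ± 2.80 CPM with vehicle, and 3 of 4 tamoxifen libraries were below every vehicle library, while library 452 at 1.80 CPM lay among them. The log2 fold change was -1.77 (SE 0.53, adjusted p = 0.0412). The call rests on few libraries: without vehicle library 429 the log2 fold change was -1.05 (adjusted p = 0.149), and the call was also lost without 377, 385, 402, 513, 549 or 564, one at a time. With a term for the sample name series it was -0.97 (adjusted p = 0.633).

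Il1b had 11, 8, 7 and 7 counts with tamoxifen, or 0.828 ± 0.332 CPM against 1.89 ± 1.31 CPM with vehicle. All 4 of these libraries lay within the vehicle range, which is stretched by library 457 (log2 fold change -1.20, SE 0.57, adjusted p = 0.161). Without that library the log2 fold change was -1.58 (adjusted p = 0.0422). Il1a had 15, 29, 45 and 21 counts, or 2.58 ± 0.97 against 4.02 ± 1.18 CPM, with 3 of 4 tamoxifen libraries below all vehicle libraries (-0.63, SE 0.27, adjusted p = 0.122; without library 549 it was -0.90 with adjusted p = 0.0408). Tnf had 4, 4, 8 and 7 counts, which overlapped the vehicle libraries (exact permutation p = 0.2). Il6 had 0, 1, 0 and 3 counts, again single reads (exact permutation p = 0.714 against uninjured and 1 against vehicle). The Il1rn share of interleukin-1 ligands by FPKM was 0.521, 0.132, 0.147 and 0.620 in the tamoxifen libraries, a range wider than that of the vehicle group and on both sides of it.

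None of the receptors was called between tamoxifen and vehicle by edgeR, by limma-voom or by the DESeq2 Wald test, and 3 of 5 had an unadjusted p under 0.05 with edgeR. Il6st was at 288, 300.2, 310 and 254 CPM in libraries 452, 513, 549 and 564 and at 313 CPM or more in each vehicle library, so the groups separated by a small margin in CPM (log2 fold change -0.20, SE 0.09, adjusted p = 0.128). In FPKM they overlapped, with tamoxifen libraries 513 and 549 at 49.7 and 50.99 and vehicle libraries 402 and 428 at 49.5 and 49.7. Tnfrsf1a was at 68.4 ± 7.5 CPM (-0.34, SE 0.13, adjusted p = 0.0858). Tnfrsf1b was at 30.7, 40.4, 41.4 and 24.8 CPM, with 2 libraries below all vehicle libraries (-0.59, SE 0.25, adjusted p = 0.119; without library 428 it was -0.77 with adjusted p = 0.0413). Il1r1 was at 18.8 ± 1.3 CPM (-0.35, SE 0.21, adjusted p = 0.267) and Il6ra at 20.2 ± 3.6 CPM (-0.24, SE 0.18, adjusted p = 0.364). With a term for the sex of the mouse Il1r1 (-0.87, adjusted p = 0.0247) and Tnfrsf1a (-0.60, adjusted p = 0.0319) were called beside Il1rn (-2.89, adjusted p = 0.00945). That fit leans on library 429, the only female vehicle library and the highest of its group for 9 of 10 members. These calls are thus not a clean correction for sex. The ratio of TNFR2 to TNFR1 by FPKM was 0.261 ± 0.055, within the vehicle range but for 1 library at 0.214 and 1 at 0.2201, just under the lowest vehicle value of 0.2205.

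**Figure D4:**
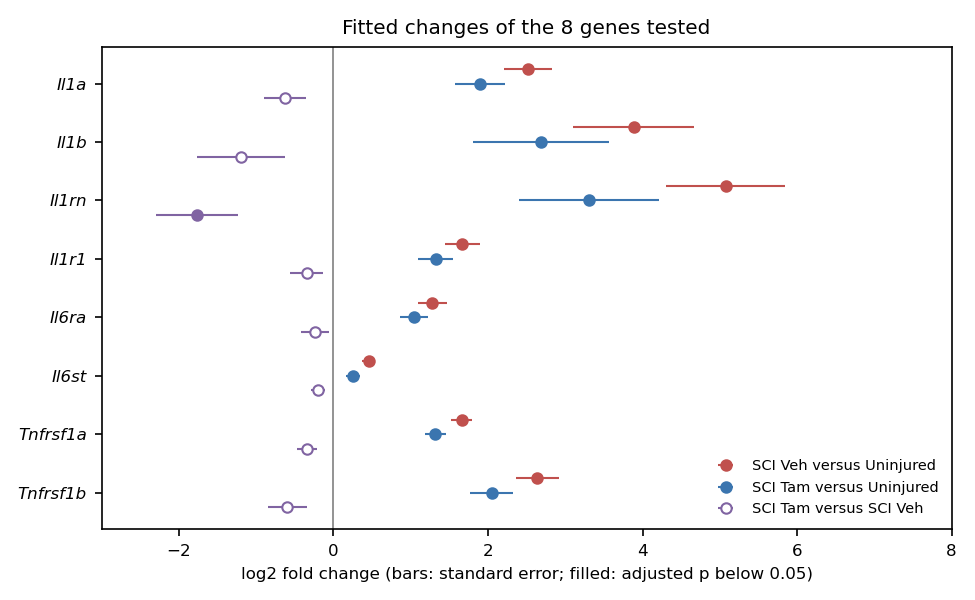
Points are fitted log2 fold changes of the 8 members tested in the 3 comparisons, bars are standard errors, and filled points have an adjusted p below 0.05. Every point against uninjured cord is filled and lies right of 0; against vehicle all lie left of 0 and only that of Il1rn is filled.

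Single libraries stood out across the 10 genes. Within the vehicle group library 429 was the highest for 9 of 10, and within the tamoxifen group library 549 was the highest for 7 of 10. Library 429 also had the highest vehicle sums of neutrophil (98.4 CPM), microglial (1002 CPM), astrocyte (11508.5 CPM) and T and NK cell (7.90 CPM) markers. Macrophage markers were highest in library 402, neuronal ones in 428, and fibroblast, endothelial and muscle markers in 457. Library 549 had the highest tamoxifen sum for astrocyte markers (13308 CPM) and for no other list. Library 452, the tamoxifen library from the same sample name series as the vehicle group, was below all vehicle libraries for 5 of the 10 genes, within their range for 5 and above it for none. Between the injured groups, neutrophil markers were at 32.9 to 49.7 CPM with tamoxifen against 66.3 to 98.4 CPM with vehicle, with no overlap, and 1 of 5 tested (Csf3r) was called lower. Fibroblast markers were at 544 to 993 CPM against 2755 to 7867 CPM, with 6 of 7 lower. Macrophage markers (712 to 2179 against 1159 to 2529 CPM, 1 of 10 lower) and microglial markers (531 to 734 against 608 to 1002 CPM, 1 of 7 lower) overlapped. Of all genes tested 8.33% fell and 16.4% did not overlap between these groups. A single call in a list of this size is thus no result about its cells. The macrophage count was 3 without library 428 or 467 and 2 without 402 or 452, and the microglial count 0 without 402, 429, 513 or 564. Their part in the cytokine values was not tested. Muscle transcripts, at 3.47 to 21.2 CPM with tamoxifen, were at 9.26 to 591 CPM with vehicle. Without the muscle-high libraries, which again leaves library 428 alone in the vehicle group, no member was called and Il6ra (0.20) and Tnfrsf1b (0.13) had a positive log2 fold change.

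Tamoxifen lesions were also compared with uninjured cord, a comparison that shares its groups with both others. All 8 tested members rose, where 26.3% of all genes rose and 22.7% fell (together 48.9%), and the 5 receptors had a median log2 fold change of 1.32 against 0.01 over all genes. In CPM 7 of the 8 did not overlap between these groups (Il6st did), as was so for 41.1% of all genes tested. Among the 5 receptors, which alone could enter the test from every group, Tnfrsf1b rose by 2.05 on the log2 scale (SE 0.28, adjusted p = 0.000136), Il1r1 by 1.32 (SE 0.22), Tnfrsf1a by 1.32 (SE 0.13), Il6ra by 1.04 (SE 0.19) and Il6st by 0.25 (SE 0.09, adjusted p = 0.0301). The Il6st call was lost when library 377, 385, 467, 452, 513 or 549 was left out, with adjusted p up to 0.0941. Of the ligands Il1a rose by 1.89 (SE 0.32, adjusted p = 0.000532), Il1b by 2.69 (SE 0.88, adjusted p = 0.0230) and Il1rn by 3.31 (SE 0.90, adjusted p = 0.00899). Il1b and Il1rn reached the filter's level in 1 and 2 tamoxifen libraries and in 0 uninjured ones, so both entered only with vehicle libraries. The Il1b call was lost without library 377, 467 or 452, with adjusted p up to 0.0529. Tnf was higher in all 4 tamoxifen than in all 4 uninjured libraries (exact permutation p = 0.0286, ratio of summed counts 11.96 with an interval of 2.96 to 105). With the term for the sample name series 5 of the 8 members were called, against 8 without it. Set against the vehicle rise in mean CPM, the tamoxifen rise was 28.0% as large for Il1rn, 40.4% for Il1b, 56.9% for Il1a, and between 51.8% and 74.2% for the receptors. These shares have no test, as they use the same uninjured libraries above and below the line.

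The rest of each pathway was read from 5 lists that hold none of the 10 genes. A gene low in uninjured cord can pass the filter only through injured libraries. In these lists this was looked at only for Casp4 and the ligands Osm and Lif. The list medians and the counts of called genes among those tested carry that limit. The IL-1 family and inflammasome list had 14 genes, 10 of them tested. With vehicle against uninjured, 9 rose and 0 fell, with a median log2 fold change of 1.80 against 0.02 over all genes. Pycard, the adaptor that joins inflammasome sensors to caspase-1, rose from 2.00 ± 0.26 to 12.9 ± 2.6 CPM (log2 fold change 2.69). Casp1, the protease that matures interleukin-1β, rose from 2.79 ± 0.76 to 8.85 ± 1.92 CPM (1.67). Casp4 rose by 2.41, but it reached the filter's level in 2 uninjured against 4 vehicle libraries. It thus entered the test only with injured libraries. Gsdmd, the pore protein through which interleukin-1β leaves cells, rose from 3.86 ± 0.58 to 15.3 ± 3.8 CPM (1.99). With tamoxifen 8 of 10 rose against uninjured, with the smallest p for Pycard (2.62), Casp1 (1.47), Gsdmd (1.27) and the sensor Nlrp3 (1.88). Against vehicle 1 of 10 fell, where 8.33% of all genes did. This was Gsdmd (log2 fold change -0.72, adjusted p = 0.0289), a call that was lost without library 402, 429, 513 or 564 (adjusted p up to 0.0835).

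All 20 genes of the adaptors next to the interleukin-1 and TNF receptors were tested. With vehicle 15 rose and 0 fell (median 0.60), among them Casp8 (2.19), the kinase Irak4 (1.53), the ubiquitin ligase Birc3 (1.77) and Adam17 (0.98), the protease that sheds TNF and its receptors. With tamoxifen 14 rose against uninjured, the same 4 with log2 fold changes of 1.78, 1.39, 1.32 and 0.70. Against vehicle 2 of 20 fell, a share near the 8.33% of all genes that fell, and the count was 4 without library 428, 3 without 467, 1 without 377 and 0 without 402, 429, 457, 513 or 564. Myd88, the adaptor of IL1R1, was at 8.76 ± 1.24 against 13.4 ± 0.8 CPM (-0.61, adjusted p = 0.0415), and Irak1, the kinase it recruits, at 67.4 ± 3.0 against 77.0 ± 2.8 CPM (-0.19, adjusted p = 0.0400). The groups did not overlap for either gene, yet the calls were lost when single libraries were left out. For Myd88 these were 377, 402, 428, 429, 457, 513, 549 and 564 (adjusted p up to 0.118), and for Irak1 402, 428, 429, 457, 452, 513 and 564 (up to 0.111).

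Of the 16 NF-kappaB subunits, kinases and inhibitors, all tested, 11 rose and 2 fell with vehicle (median 0.68). Nfkb2 rose by 1.49, the subunit Rela by 0.71, Nfkb1 by 0.65 and Bcl3, a nuclear partner of the NF-kappaB subunits, by 2.64. With tamoxifen against uninjured 9 rose and 1 fell, with Nfkb2 at 1.08, Rela at 0.38, Bcl3 at 1.88 and Nfkbiz at 0.94. Against vehicle 4 of 16 fell and 0 rose, where 8.33% of all genes fell. The count was 6 without library 467, and 2 without 402, 429, 457, 513 or 564. Rela was at 51.1 ± 4.5 against 64.4 ± 4.0 CPM (-0.33, adjusted p = 0.00952), and Ikbkb, the kinase that marks the inhibitor of NF-kappaB for destruction, at 48.1 ± 6.9 against 63.6 ± 3.8 CPM (-0.41, adjusted p = 0.0149). Neither gene's groups overlapped, and both calls held under all 12 omissions of 1 library. Both were lost with the term for the sex of the mouse (adjusted p = 0.0762 for Rela and 0.109 for Ikbkb), which is unbalanced between these groups. Nfkb2 (-0.41) and Nfkb1 (-0.30) also fell, but Nfkb2 was not called without 402, 429, 457, 452, 513 or 564 (adjusted p up to 0.109), nor Nfkb1 without 377, 385, 402, 429, 457, 513 or 564 (up to 0.129).

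The list of gp130 cytokines, receptors and JAK-STAT3 genes had 19 genes, 17 of them tested. With vehicle 11 rose and 1 fell (median 0.65). Osmr, the oncostatin M receptor that pairs with gp130, rose from 7.80 ± 2.15 to 53.1 ± 14.3 CPM (2.77), Socs3, the feedback inhibitor induced by STAT3, from 2.68 ± 0.99 to 20.1 ± 3.6 CPM (2.89), the ligand Clcf1 from 2.47 ± 0.76 to 9.00 ± 0.89 CPM (1.85) and Stat3 from 125 ± 6 to 195 ± 22 CPM (0.65). Socs3 and Osmr thus rose while Il6 itself stayed at single reads. With tamoxifen 9 rose and 3 fell against uninjured, with Socs3 at 2.60, Osmr at 2.17, Stat3 at 0.54 and Cntfr, a receptor chain for ciliary neurotrophic factor, at -0.35. Against vehicle 3 of 17 fell and 0 rose, where 8.33% of all genes fell and 7.79% rose. The count was 1 without library 564, and 2 without 377, 385, 429, 457 or 513. Clcf1 was at 4.99 ± 0.85 against 9.00 ± 0.89 CPM with no overlap (-0.85, adjusted p = 0.0133), a call that held under all 12 omissions and was lost with the sex term (adjusted p = 0.0664). Il11ra1 (-0.33) and the kinase Tyk2 (-0.47) also fell. The Il11ra1 call was lost without 429 or 564 (adjusted p up to 0.0514), and the Tyk2 call without 377, 385, 467, 402, 429, 457, 513 or 564 (up to 0.117).

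Acute response genes, a list of 19 cytokine-induced genes with 15 tested, had the highest median of the 5 lists with vehicle, over the genes that passed the filter. There 12 rose and 1 fell (median 2.60), with the smallest p for Ptx3, a long pentraxin induced by interleukin-1 and TNF, from 1.02 ± 0.16 to 24.4 ± 3.2 CPM (4.56). Icam1, an adhesion molecule for leukocytes, rose by 2.60, Tnfaip2 by 2.23 and Junb, a subunit of AP-1, by 0.96. With tamoxifen 10 rose and 0 fell against uninjured, among them Ptx3 (3.80), Cebpd (2.82), Icam1 (2.07) and Junb (0.90). Against vehicle 2 of 15 fell and 1 rose, where 8.33% of all genes fell and 7.79% rose. Ptx3 was at 14.3 ± 5.4 against 24.4 ± 3.2 CPM (-0.76, adjusted p = 0.0324) and haptoglobin (Hp) at 1.33 ± 0.90 against 8.45 ± 6.49 CPM (-2.63, adjusted p = 0.0320), and both calls were lost without library 402, 429, 457 or 513, that of Ptx3 also without 428 and that of Hp also without 564 (adjusted p up to 0.0948 and 0.0941). Sod2, the mitochondrial superoxide dismutase, was the gene that rose, from 107 ± 9 to 155 ± 24 CPM (0.53, adjusted p = 0.00636). Its call held under all 12 omissions and with the sex term (adjusted p = 0.0345), and vehicle was below uninjured cord (156 ± 5 CPM), so the tamoxifen level was next to the uninjured one.

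With the sex term the calls of Irak1, Nfkb1, Nfkb2, Tyk2 and Ptx3 between tamoxifen and vehicle were also lost (adjusted p from 0.0618 to 0.185), and those of Gsdmd, Myd88, Il11ra1 and Hp were kept (0.0221 to 0.0381). With the term for the sample name series, 0 genes of these 5 lists were called between tamoxifen and vehicle by edgeR, and 57 of all genes were. The ratio of counts to FPKM was also compared across that series for the 6 members with at least 200 counts in total. Its log2 value in the 3 libraries differed from the 9 others by -0.11 to 0.04. For 3 of the 6 the libraries did not overlap (Il1r1 -0.10, Il6ra -0.11 and Il6st -0.10), and for Il6st this step is not small beside its change of -0.20 between tamoxifen and vehicle.

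**Figure D5:**
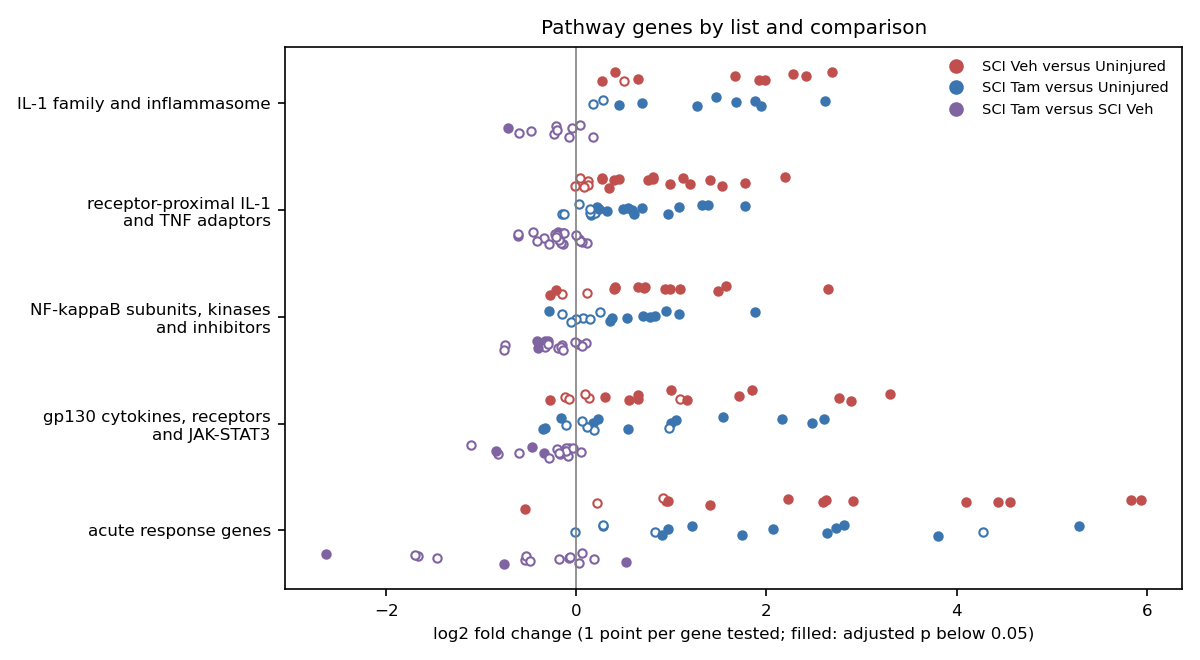
Each point is 1 tested gene of the list on the left, placed by its log2 fold change in 1 of the 3 comparisons, with filled points where the adjusted p was below 0.05; the small vertical scatter only keeps points apart. Both comparisons with uninjured cord lie mostly right of 0, and tamoxifen against vehicle lies close to 0 or left of it, with Sod2 as the 1 filled point to the right.

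Over the 12 libraries the genes whose standardised log2 CPM lay nearest to that of Il1b were Aldh16a1, Bin3 and Sirpa, with a root mean square difference of 0.291, 0.357 and 0.362 SD. For Il1rn they were Pdpn, Sirpa and Mylip, at 0.231, 0.232 and 0.236 SD, so Sirpa, a receptor of myeloid cells and neurons, was near to both. Pdpn was at 13.8, 56.9 and 36.0 CPM on average in uninjured, vehicle and tamoxifen libraries. The order of the 3 group means was that of Il1rn, which the choice of Pdpn by nearness over the same libraries makes likely. These likenesses come from 12 libraries of 3 groups that differ in many genes, and are given as a description with no test.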

How the data were processed

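RNA-seq was read from 12 mouse spinal cord libraries, 4 each of uninjured, injured vehicle and injured tamoxifen mice. The submitters' processing notes name build mm9 and the tools TopHat, HTSeq, Cufflinks and Picard, without versions or roles; strand setting: not given in the sources used here. What the authors deposited were whole-number counts for 37991 genes and a table of FPKM values, in which 22 cells held no number and 18 identifiers had more than 1 entry. Symbols came from the FPKM table, with 99 from a reference. Counts (7967970 to 12581324 per library) gave all tests; intervals cover counting error only.

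The 3 groups were fitted together with edgeR 4.0.16 in R 4.3.3 (filterByExpr at minimum count 10 and total 15, TMM, quasi-likelihood, 9 residual degrees of freedom, two-sided). Benjamini-Hochberg adjustment ran over 16473 genes with a threshold of 0.05; SE is the size of the log2 fold change over the square root of F. Tnf and Il6, below the filter, were tested by exact permutation. The script was tested on simulated data. A check of the recombined alleles is not reported here. Members and lists were chosen with earlier results of these data known. All 10 members were named whatever their values, with up to 4 called genes of smallest p per list and comparison, and the 3 genes most like Il1b and Il1rn. The 25 alternatives covered normalisation, filters, DESeq2 1.42.0, limma 3.58.1 on counts and on log2 FPKM plus 1 or 0.1, sample name series, sex, muscle transcripts, and each library left out. Nothing in the labels says how mice share litters, so p-values measure the spread between these mice.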

Additional observations from a re-analysis of the deposited data

Results flagged for a closer look

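In uninjured cord, Tnf in library 376 stood apart from the other 3 libraries at 0.2295 CPM, which is 2 counts against 0 in each of the others. The gap filled the whole range of the group, past the limit of Dixon's test for 4 values. Such a gap was looked for in 30 groups of 4 libraries (10 genes in 3 groups), and chance marks about 1 in 20. A difference of 2 counts is within counting error.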

How the results depend on the processing

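In vehicle against uninjured 8 members were called, and 7 to 9 under the alternatives other than leaving out the libraries high in muscle transcripts, which gave 2 with 1 vehicle library remaining, assumed to vary like the other groups; the cause was not tested. In tamoxifen against vehicle the count of 1 became 0 with limma-voom (4 at an unadjusted p under 0.05), with limma on log2 FPKM plus 1 (3) or 0.1 (1), and with edgeR on only the 8 libraries (3), with the series term (1), without the 3 libraries 513, 549 and 564 (1) and without the muscle-high libraries (0). It was 3 with the sex term, and ran from 0 to 2 over the omissions of 1 library. Over those omissions the Il1rn log2 fold change ran from -2.10 to -1.05 with adjusted p from 0.0195 to 0.149. Without the muscle-high libraries Il6ra (0.20), Tnfrsf1b (0.13) and Hp (1.43) turned positive. In tamoxifen against uninjured 8 became 5 on only the 8 libraries (6 members tested), 5 with the series term and 3 without those 3 libraries, which leaves library 452 alone. Of all genes, 2655 were called between tamoxifen and vehicle, but 57 with the series term, 29 without those 3 libraries, 989 with the sex term, 1513 on only the 8 libraries, 1518 and 1438 on log2 FPKM, 0 without the muscle-high libraries, and 1236 to 4631 over the omissions. Against uninjured, 1951, 2024 and 3540 tamoxifen genes (of 8063) were called with the series term, without its 3 libraries and without the muscle-high ones, and 296 vehicle genes (of 8368) with the last. No paired analysis was possible because the groups share no replicate numbers. Depth limits Il6, Tnf and uninjured Il1b and Il1rn to a few counts.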

Other observations

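Other ligands of the interleukin-1 and interleukin-6 families, named after their values were seen, were read in the same fit. Il33, an interleukin-1 family alarmin, was at 132 ± 18 CPM in uninjured, 208 ± 27 in vehicle and 213 ± 43 in tamoxifen libraries (n = 4 each). It rose in both injured groups (log2 fold changes 0.65 and 0.69) and differed by 0.04 between them (SE 0.15, adjusted p = 0.888). Il18, which caspase-1 also matures, rose from 9.96 ± 0.61 to 13.3 ± 0.6 CPM with vehicle (0.41, adjusted p = 0.00886) and was at 11.3 ± 1.7 CPM with tamoxifen.

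Of the gp130 ligands, Osm rose from 0.187 ± 0.143 to 1.94 ± 0.74 CPM with vehicle (log2 fold change 3.30, SE 0.56), having reached the filter's level in no uninjured library, and was at 1.10 ± 0.45 CPM with tamoxifen (-0.82 against vehicle, adjusted p = 0.19). Lif rose from 0.748 ± 0.442 to 2.48 ± 0.68 and 2.21 ± 0.61 CPM, having reached the filter's level in 1 uninjured library and 4 libraries of each injured group. Il11 did not pass the filter, with 0.594 ± 0.287, 0.597 ± 0.288 and 0.716 ± 0.553 CPM.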
